A study of Mus musculus with 4 samples.

Results

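The mitochondrial respiratory chain genes were examined in the anterior and posterior lobes of the mouse cerebellum on postnatal day 7. The members were picked by a rule on gene symbols, which was set with earlier results of these data known. They are all probes of the array for the Ndufa, Ndufb, Ndufc, Ndufs and Ndufv subunits of complex I, Sdha to Sdhd of complex II, the Uqcr genes and Cyc1 of complex III, Cycs (cytochrome c), the Cox4 to Cox8 genes of complex IV and the Atp5 genes of complex V. A probe is a short DNA sequence on beads that captures the labelled copy of a transcript, whose average brightness gives the signal. The rule found 123 probes of 83 gene symbols among 45281 probes of 30854 symbols.

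RNA came from 2 anterior and 2 posterior lobe samples of untreated Swiss mice at postnatal day 7, each on its own Illumina MouseWG-6 v2.0 array. The mice are not described by the labels as mutant or transgenic, and whether the samples came from separate animals, pooled animals or the same animals was not given in the sources used here. The p-values therefore measure only the spread between these samples, which may be technical. The study looked for genes that differ between the lobes. In samples of whole tissue, fewer cells of a type and less RNA per cell cannot be told apart.

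The respiratory chain passes electrons from NADH (complex I) and succinate (complex II) through ubiquinone, complex III and cytochrome c to oxygen at complex IV, and complex V, the ATP synthase, uses the proton gradient that results to make ATP. Most subunits are encoded in the nucleus and a few of the catalytic ones in mitochondrial DNA. Neurons of the developing cerebellum rely on this ATP increasingly as they leave the cell cycle and begin to signal.

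Members fell into complex I (51 probes of 34 genes), complex II (8 of 4), complex III (9 of 8), cytochrome c (3 of 1), complex IV (21 of 16) and complex V (23 of 14). Another 6 probes of 5 genes, namely Ndufaf1, Ndufa12l, Atp5s, Atp5sl and Cox7a2l, match the symbols but are for assembly factors or related proteins. Cox4nb, with 2 probes, matches by its letters only and belongs to a complex of the endoplasmic reticulum. Ndufa4 was counted with complex IV, of which it is now known to be a subunit.

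A probe was tested if its detection p-value, which ranks it among the negative controls of the array, was under 0.05 on at least 2 of the 4 arrays. This left 101 member probes of 75 genes, beside 21726 probes of 15615 symbols for the whole array. Of these members 98 were detected on all 4 arrays. The other 22 probes were not tested: 20 were detected on no array, and the probes of Uqcrq and Cox4i2 only on that of anterior replicate 2. Just inside the limit were an Ndufc2 probe, a Sdhb probe and the Uqcrfs1 probe, each detected on 2 arrays. Their lowest detection p-values were 0.0363, 0.0385 and 0.0417, against 0.0289 for Uqcrq and 0.0449 for Cox4i2, which passed on 1 array each. Ndufab1, Ndufs1, Uqcrq, Cox4i2, Cox7a2, Cox7b2, Cox8b and Cox8c had no tested probe, and 14 genes had tested and untested probes.

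The tested respiratory chain probes were bright on all arrays. Their median raw intensity was 4453 and 3402 on the arrays of anterior replicates 1 and 2. It was 3848 and 4008 on those of posterior replicates 1 and 2. The median over all 45281 probes, undetected ones included, lay between 110.2 and 129.6. Among tested probes alone, the median normalized log2 signal was 11.91 for members and 9.27 for the whole array. Each member value came from a median of 38 to 42 beads, and the standard error over the beads was 3.28% to 3.55% of the signal at the median. The number of arrays limits the precision, since with 2 arrays a lobe the smallest two-sided p of an exact permutation test is 0.33. Signals below are log2 of the quantile-normalized intensity, and differences are posterior minus anterior on that log2 scale. Signals of different probes are not comparable.

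A change between the lobes passed the study's criterion, more than 1.2-fold at an unadjusted p under 0.05, for 1 of the 101 tested member probes. That probe was for Cox6a2, the subunit 6a isoform of heart and skeletal muscle, and it was lower in the posterior lobes. The share of 0.99% is to be read against 8.29% of all tested probes, of which 5.00% were lower and 3.30% higher in the posterior lobes. No member passed an adjusted p of 0.05 (limma, Benjamini-Hochberg over all tested probes, lowest adjusted p = 0.40), where 0.106% of all tested probes did. At an unadjusted p under 0.05 in limma 5 of the 101 members passed, Ndufa2, Ndufc2 and Sdhb with positive and Ndufv1 and Cox6a2 with negative differences, against 2185 of the 21726 tested probes.

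The count rests on few arrays. Without the array of anterior replicate 1, the member differences ran from -0.40 to 0.34. Their median was 0.023, against -0.006 for all tested probes. Without posterior replicate 1 they ran from -0.31 to 0.30, with a median of 0.046 against 0.009. Without posterior replicate 2 they ran from -0.32 to 0.28, with a median of 0.059 against -0.006. Each such fit leaves 1 array in a lobe, so that the spread of a probe comes from the 2 arrays of the other lobe, and the same spread is taken for the array left alone.

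Member differences were small and mostly just above 0. They ran from -0.32 to 0.26, and 72 of the 101 (71.3%) were above 0, against 50.6% of all tested probes. Their median was 0.056, against 0.002 for all tested probes. The SD of the member differences was 0.101, against 0.235 over all tested probes. Taken from single arrays, the median absolute member difference was 0.079 to 0.1 over the 4 pairs of an anterior and a posterior array, 0.093 between the anterior arrays and 0.068 between the posterior arrays. Over all tested probes these medians were 0.11 to 0.16, 0.14 and 0.092. In 44 members (43.6%) the lobes did not overlap, with the posterior arrays above in 29 and below in 15. Of all tested probes 42.6% were of this kind, with the posterior arrays above in 4594 and below in 4661.

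How large a difference these arrays leave room for is given by the 95% intervals of the limma fit. For 99 of the 101 members (98%) the whole interval lay within 1.5-fold in either direction, against 82.8% of all tested probes. The exceptions were Sdha and Cox6a2, whose intervals both reached -0.59. Within 1.2-fold lay the intervals of 38 members (37.6%, against 12.1%), and for the remaining members the interval reaches past 1.2-fold in at least 1 direction. Members were brighter than all tested probes (median log2 signal 11.91 against 9.27) and had smaller errors (median SE 0.087 against 0.11). The part of brightness in these shares was not tested.

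**Figure D1:**
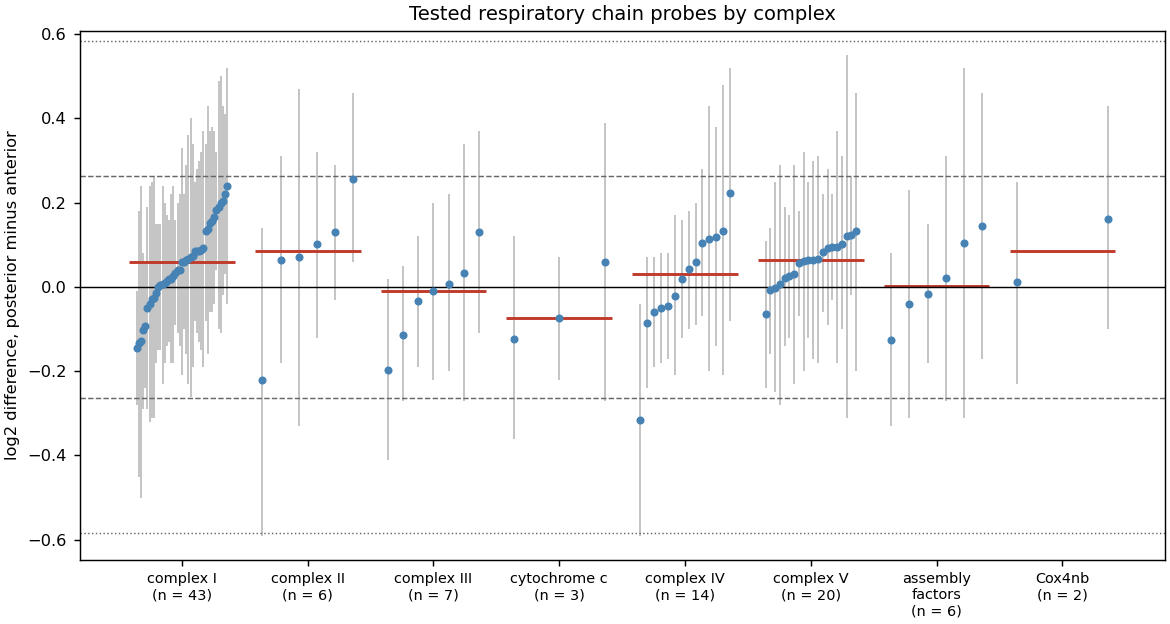
Each point is the difference of 1 tested member probe (log2 signal, posterior minus anterior; n = 2 arrays per lobe), sorted within its complex, with its 95% limma interval in grey and the median of the complex in red; the dashed lines mark 1.2-fold and the dotted lines 1.5-fold. Cox6a2 in complex IV, at -0.32, is the point beyond a dashed line, and the medians run from -0.074 for cytochrome c to 0.086 for complex II.

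**Figure D2:**
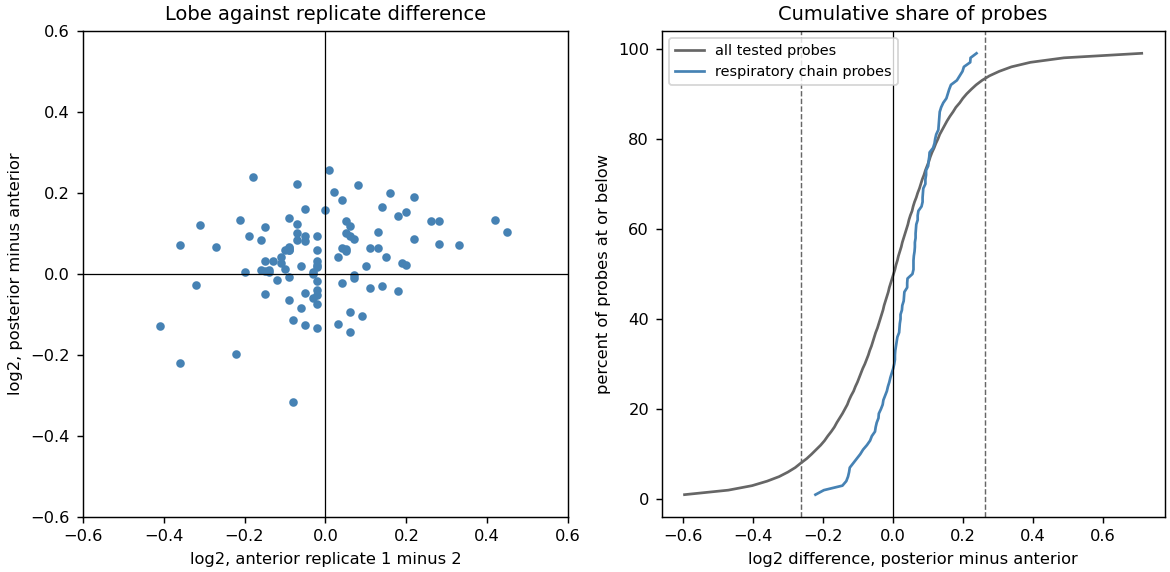
Left, the lobe difference of each of the 101 tested member probes against the difference between the 2 anterior arrays (both log2). Right, the cumulative percent of probes by lobe difference for all 21726 tested probes (grey) and the members (blue), with dashed lines at 1.2-fold: the member curve is steeper, and 71.3% of it lies above 0, against 50.6%.

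Nuclear respiratory chain genes are known for promoters with sites for NRF1, for GABPA and other ETS factors, and for YY1, all of which are known regulators of such genes. The promoters were searched on both strands for GCGCANGCG (NRF1), CCGGAAG (ETS) and AAGATGGCG (YY1), and for TATAAA as a core promoter element, in RefSeq windows of 250 bases before to 50 bases after the gene start (GRCm38.p6). All 83 symbols matched a RefSeq gene, 6 of them by an older name, and 67 had a promoter in the table. The NRF1 letters were in 20 of these 67 genes (29.9%, against 7.03% of all genes with a promoter), the ETS letters in 16 (23.9%, against 9.93%) and the YY1 letters in 8 (11.9%, against 1.64%). At least 1 of the 3 was in 36 genes (53.7%, against 16.5%), whereas the TATA letters were in 7 (10.4%, against 15.7%). Matches of different motifs overlapped in 0 of the 73 member promoters. A match of letters is a description of the sequence and not a measured binding site.

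The lobe differences had similar medians with and without these letters. The median difference was 0.06 over the 28 tested probes of genes with the NRF1 letters and 0.06 over the 59 probes without. It was 0.07 over 23 probes with the ETS letters and 0.04 over 14 probes with the YY1 letters, where the probes without them had 0.06 in both cases. Over the 7 probes with the TATA letters it was 0.09, from 0.01 to 0.14, against 0.06 over the 80 without. The following promoters are shown, 5′ to 3′ on the strand of the gene with the matches in capitals: Cox6a1, the widely expressed isoform beside Cox6a2 (NRF1 and ETS letters), Sdhb, the member with the largest positive difference (ETS letters), and Ndufs6, an accessory subunit of complex I (NRF1 and YY1 letters).
Cox6a1, chr5:115348909-115349208, minus strand: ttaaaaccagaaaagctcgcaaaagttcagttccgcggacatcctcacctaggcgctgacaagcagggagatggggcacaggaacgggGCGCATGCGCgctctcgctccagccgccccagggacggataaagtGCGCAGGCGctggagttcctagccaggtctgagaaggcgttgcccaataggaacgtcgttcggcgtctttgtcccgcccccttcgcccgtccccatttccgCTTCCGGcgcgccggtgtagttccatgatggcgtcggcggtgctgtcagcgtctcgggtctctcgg
Sdhb, chr4:140961021-140961320, plus strand: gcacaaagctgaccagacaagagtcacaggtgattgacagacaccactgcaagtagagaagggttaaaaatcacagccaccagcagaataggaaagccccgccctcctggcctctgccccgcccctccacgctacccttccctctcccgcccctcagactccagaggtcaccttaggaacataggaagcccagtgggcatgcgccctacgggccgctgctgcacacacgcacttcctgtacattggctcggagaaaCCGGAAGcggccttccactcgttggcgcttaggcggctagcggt
Ndufs6, chr13:73328433-73328732, minus strand: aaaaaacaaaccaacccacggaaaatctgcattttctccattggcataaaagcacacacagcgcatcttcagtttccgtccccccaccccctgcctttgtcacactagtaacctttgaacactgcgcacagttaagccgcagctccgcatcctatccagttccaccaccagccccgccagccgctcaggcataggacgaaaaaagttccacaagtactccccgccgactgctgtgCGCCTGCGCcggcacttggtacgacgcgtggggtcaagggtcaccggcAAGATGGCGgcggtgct

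In complex I, which takes electrons from NADH, no probe passed the criterion. Of 43 tested probes of 32 genes, 33 had a difference above 0, the median was 0.059 and the values ran from -0.14 to 0.24. The conserved core subunits, such as Ndufv1 and Ndufv2, which carry the flavin and the iron-sulfur clusters or line the path to ubiquinone, had 7 tested probes with a median of -0.04, 3 of them above 0. The accessory subunits, which surround the core, had 36 tested probes with a median of 0.068, 30 of them above 0.

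The core subunit with the most negative difference was Ndufv1, which binds NADH. Its log2 signal was 13.94 and 13.88 on the arrays of anterior replicates 1 and 2 and 13.77 and 13.77 on those of posterior replicates 1 and 2. Both posterior arrays lay below both anterior arrays. The difference was -0.14 ± 0.056 (SE, 95% interval -0.28 to -0.01, limma adjusted p = 0.47).

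Among the accessory subunits of the membrane arm, Ndufb11 had the largest positive difference. Its log2 signal was 7.26 and 7.45 on the anterior arrays (replicates 1 and 2) and 7.57 and 7.61 on the posterior arrays, which both lay above the anterior ones. The difference was 0.24 ± 0.11 (SE, 95% interval -0.04 to 0.52, limma adjusted p = 0.55). The difference of Ndufb11 was 0.33 without anterior replicate 2 and 0.15 without anterior replicate 1. After a shift to a common 75th percentile it passed the criterion. The probe was dim, with detection p-values of up to 0.015, and the other Ndufb11 probe was detected on no array.

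Ndufc2, likewise of the membrane arm, had 2 tested probes. At the brighter probe, ILMN_2976591, the log2 signal was 11.62 and 11.54 on the anterior and 11.84 and 11.76 on the posterior arrays. The lobes did not overlap, and the difference was 0.22 ± 0.079 (SE, 95% interval 0.03 to 0.41, limma adjusted p = 0.44). The dim probe, ILMN_1251341, was detected on both posterior arrays (7.15 and 7.10) and on neither anterior array (6.96 and 6.97). Its mean posterior signal was 1.07-fold above the dimmest detected signals of the anterior arrays, a value without an error. The limma difference between the lobes was 0.16 (95% interval -0.06 to 0.38, adjusted p = 0.60), and the interval includes 0. This probe passed the filter only through the posterior lobe, which favours a positive difference. Its sign, size and p therefore add nothing to those of the brighter probe.

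Ndufa2, a small accessory subunit, had the log2 signals 13.30 and 13.26 on the anterior and 13.46 and 13.47 on the posterior arrays, a difference of 0.18 ± 0.058 (SE, limma adjusted p = 0.40). Its lobes did not overlap either. Ndufb9 had the most negative accessory difference, with 8.15 and 8.16 on the anterior and 7.91 and 8.13 on the posterior arrays. Its difference of -0.13 ± 0.13 (SE) was no larger than its error and came mainly from posterior replicate 1. Ndufs4, whose loss causes a complex I deficiency in mice, was read by 4 probes that all gave differences between 0.02 and 0.07, with overlapping lobes at each.

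Ndufs6, whose promoter is shown above, had 2 tested probes. At ILMN_1233115 the log2 signal was 10.22 and 10.20 on the anterior and 10.42 and 10.40 on the posterior arrays, a difference of 0.20, while the difference at ILMN_2842572 was 0.04. The lobes did not overlap at the first and overlapped at the second, so the larger value rests on 1 probe.

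Complex II, succinate dehydrogenase, also belongs to the citric acid cycle, and none of its subunits is encoded in mitochondrial DNA. Its 6 tested probes had a median difference of 0.086, and 5 were above 0. None passed the criterion.

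Sdhb, the iron-sulfur subunit, came closest. At ILMN_2769064 its log2 signal was 10.81 and 10.80 on the anterior and 11.08 and 11.04 on the posterior arrays. The arrays of each lobe were close together and the lobes did not overlap. The difference was 0.257 ± 0.082 (SE, 95% interval 0.06 to 0.46, limma adjusted p = 0.40), just under the 0.263 that corresponds to 1.2-fold, and it passed the criterion after neqc background correction, after a shift to a common 75th percentile and without anterior replicate 1.

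The other Sdhb probes had smaller differences of the same sign. ILMN_2769065 gave 11.08 and 11.15 on the anterior and 11.15 and 11.28 on the posterior arrays, a difference of 0.10. ILMN_2592389, detected on 2 of the 4 arrays, gave 6.97 and 7.06 on the anterior and 7.02 and 7.14 on the posterior arrays, a difference of 0.06. The 3 probes thus differed by 0.19 among themselves, over a range wider than the error of each.

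Sdha, the flavoprotein that oxidizes succinate, was the member of complex II with a negative difference. Its log2 signal was 7.44 and 7.80 on the anterior and 7.45 and 7.35 on the posterior arrays. Anterior replicate 2 stood above the other arrays, and anterior replicate 1 lay between the posterior arrays. The difference was -0.22 ± 0.15 (SE, 95% interval -0.59 to 0.14, limma adjusted p = 0.65). It was -0.40 and passed the criterion without anterior replicate 1, and was -0.04 without anterior replicate 2.

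Sdhc and Sdhd anchor the enzyme in the membrane. Sdhc gave 12.75 and 12.70 on the anterior and 12.89 and 12.82 on the posterior arrays, without overlap, a difference of 0.13 ± 0.066 (SE, limma adjusted p = 0.56). Sdhd gave 7.47 and 7.83 on the anterior and 7.84 and 7.60 on the posterior arrays, and its difference of 0.07 ± 0.16 (SE) was under its error.

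**Figure D3:**
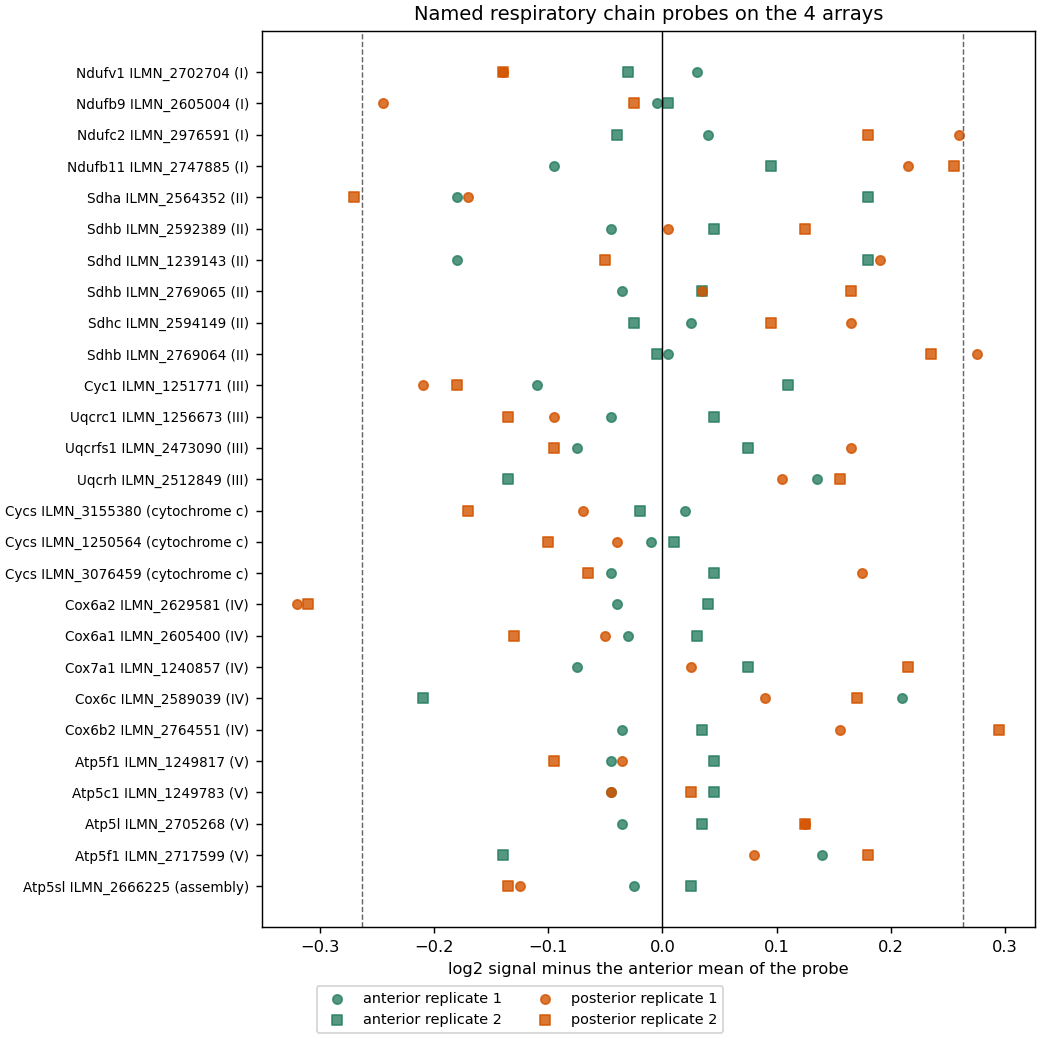
Signal of the 27 named member probes on each of the 4 arrays, as log2 signal minus the anterior mean of the probe; green marks the anterior and orange the posterior arrays, circles replicate 1 and squares replicate 2, and the dashed lines mark 1.2-fold. Both posterior arrays of Cox6a2 lie beyond the left line, while Sdha, Sdhd and Cox6c have anterior arrays further apart than any lobe difference plotted.

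Complex III, which passes electrons from ubiquinol to cytochrome c, had 7 tested probes with a median difference of -0.01, from -0.20 to 0.13, 3 of them above 0. None passed the criterion. Cyc1, its cytochrome c1 subunit, had the most negative difference: the log2 signal was 13.17 and 13.39 on the anterior and 13.07 and 13.10 on the posterior arrays. Both posterior arrays lay below both anterior arrays, though the anterior arrays were 0.22 apart. The difference was -0.20 ± 0.087 (SE, 95% interval -0.41 to 0.02, limma adjusted p = 0.53). It was -0.31 without anterior replicate 1 and -0.09 without anterior replicate 2.

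Uqcrc1, a core protein of complex III, gave 13.01 and 13.10 on the anterior and 12.96 and 12.92 on the posterior arrays, a difference of -0.11 ± 0.065 (SE) without overlap. Uqcrh, the hinge protein, gave 13.17 and 12.90 on the anterior and 13.14 and 13.19 on the posterior arrays, a difference of 0.13 ± 0.097 (SE). Here anterior replicate 2 lay apart from the other arrays, and the difference was 0.26 without anterior replicate 1 and 0.00 without anterior replicate 2. Uqcrfs1, the Rieske iron-sulfur protein, gave 6.87 and 7.02 on the anterior and 7.11 and 6.85 on the posterior arrays, a difference of 0.03 ± 0.12 (SE), with the lobes overlapping near the detection limit.

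Cytochrome c, which carries electrons from complex III to complex IV and also takes part in apoptosis, was read by 3 Cycs probes with a median difference of -0.074. The brightest, ILMN_1250564, gave 13.34 and 13.36 on the anterior and 13.31 and 13.25 on the posterior arrays, a difference of -0.07 ± 0.06 (SE). ILMN_3155380 gave 7.27 and 7.23 on the anterior and 7.18 and 7.08 on the posterior arrays, a difference of -0.12 ± 0.097 (SE). The lobes did not overlap at either. ILMN_3076459 gave 8.36 and 8.45 on the anterior and 8.58 and 8.34 on the posterior arrays, with overlap and a difference of 0.06 ± 0.14 (SE). None of the 3 passed the criterion.

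Complex IV, cytochrome c oxidase, reduces oxygen. Its 14 tested probes had a median difference of 0.03, from -0.32 to 0.22, and 8 were above 0. Several of its nuclear subunits exist as isoforms of which one is restricted to certain tissues: Cox6a2 and Cox7a1 are known from heart and skeletal muscle, Cox6b2, Cox7b2 and Cox8c from testis, Cox8b from muscle and Cox4i2 from lung.

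Cox6a2 was the only member past the criterion. Its log2 signal was 8.21 and 8.29 on the anterior and 7.93 and 7.94 on the posterior arrays. Both posterior arrays lay below both anterior arrays by far more than the replicates of a lobe differed. It was lower in the posterior lobes by 1.25-fold, a log2 difference of -0.32 ± 0.11 (SE, 95% interval -0.59 to -0.04, unadjusted p = 0.032 and adjusted p = 0.44 in limma, and adjusted p from 0.13 to 1 over 14 alternatives). Alternatives that change only the detection filter or the test leave the difference itself as it is, so they could not alter its sign. Under the others Cox6a2 stayed negative, from -0.42 to -0.28. It no longer passed the criterion without normalization, without anterior replicate 2 or without either posterior array.

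No marker of muscle passed the criterion. Of the muscle and heart genes listed, Myh7, Myl2, Myh6 and Ckm were detected on no array, and Acta1 and Mb, the tested ones, had differences of 0.18 and 0.11. Their summed signal was 542 and 529 on the anterior and 603 and 596 on the posterior arrays. Oligodendrocyte markers were lower in the posterior lobes, as Cox6a2 was, with 21 of 23 tested probes past the criterion (91.3%, against 8.29% of all). Their summed normalized intensity was 136702 and 135393 on the anterior and 92603 and 86083 on the posterior arrays, Olig2 being detected on no array. Meningeal markers were higher, with 10 of 14 tested probes past the criterion (71.4%). Their summed intensity was 18817 and 21203 on the anterior and 30252 and 36422 on the posterior arrays. The part of these cells in the member results was not tested.

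Cox6a1, the widely expressed isoform, had differences of -0.08 and 0.04 at its 2 probes. At ILMN_2605400 it gave 13.60 and 13.66 on the anterior and 13.58 and 13.50 on the posterior arrays. Cox7a1 gave 9.25 and 9.40 on the anterior and 9.35 and 9.54 on the posterior arrays, with overlap and a difference of 0.12 ± 0.13 (SE). Cox6b2 was detected on all arrays at 1 of its 2 probes, with 8.39 and 8.46 on the anterior and 8.58 and 8.72 on the posterior arrays. Its lobes did not overlap, and the difference was 0.22 ± 0.12 (SE, 95% interval -0.08 to 0.52, limma adjusted p = 0.59). The tested isoforms named for other tissues thus lay on either side of 0, and Cox7b2, Cox8b and Cox8c were not detected on any array.

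Cox6c, a small subunit without known isoforms, showed how far an anterior array could move a value. It gave 12.26 and 11.84 on the anterior and 12.14 and 12.22 on the posterior arrays, so that the anterior arrays differed by more than any lobe means of the members. Its difference was 0.13 ± 0.14 (SE, limma adjusted p = 0.78) with all arrays, 0.34 without anterior replicate 1 and -0.07 without anterior replicate 2, so that its sign rests on 1 array.

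Complex V, the ATP synthase, varied little among its members: 20 tested probes of 14 genes ran from -0.06 to 0.13, with an SD of 0.051, a median of 0.064 and 17 above 0. In 8 of them the lobes did not overlap (40%, against 42.6% of all tested probes). The posterior arrays lay above the anterior ones in each of these 8, against 4594 of the 9255 such probes among all tested. None passed the criterion. Atp5l, the g subunit of the membrane part, gave 13.70 and 13.77 on the anterior and 13.86 and 13.86 on the posterior arrays at ILMN_2705268. The lobes did not overlap, and the difference was 0.12 ± 0.057 (SE, 95% interval -0.02 to 0.26, limma adjusted p = 0.54). At the other tested Atp5l probe, ILMN_2973897, the lobes overlapped and the difference was 0.07 ± 0.094 (SE). Atp5c1, the gamma subunit of the rotor, gave 14.16 and 14.25 on the anterior and 14.16 and 14.23 on the posterior arrays, a difference of -0.01 ± 0.06 (SE).

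The largest spread between probes of a member gene, 0.20, was that of Atp5f1, the b subunit of the stator. ILMN_1249817 gave 12.49 and 12.58 on the anterior and 12.50 and 12.44 on the posterior arrays, a difference of -0.06 ± 0.071 (SE). ILMN_2717599 gave 7.83 and 7.55 on the anterior and 7.77 and 7.87 on the posterior arrays, a difference of 0.13 ± 0.14 (SE). The lobes overlapped at both. Of the 20 genes with several tested probes, 15 had probes of one sign. Ndufc2 is counted among these 15 through its dim probe, whose positive sign the filter favoured, so that it adds no agreement. In none of the 20 did probes lie on opposite sides of 0 by more than 1 SE each.

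Assembly factors and related proteins had 6 tested probes with a median of 0.003. Atp5sl had the most negative difference, with 10.81 and 10.86 on the anterior and 10.71 and 10.70 on the posterior arrays. Its lobes did not overlap, and the difference was -0.13 ± 0.085 (SE, limma adjusted p = 0.65). Cox4nb, which is not a respiratory protein, had differences of 0.01 and 0.16.

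Subunits encoded in mitochondrial DNA, which the rule did not take, were on the array with 8 probes, of which 7 were tested and none passed the criterion. Their median difference was -0.04, and 1 of 7 was above 0. The differences were -0.06 for mt-Nd1, -0.04 for mt-Cytb, -0.04 for mt-Nd4, -0.02 for mt-Co2 and -0.01 for mt-Atp6. Only mt-Nd4l (-0.38 ± 0.16 SE, limma adjusted p = 0.52) and the dim mt-Nd5 (0.20 ± 0.11 SE, limma adjusted p = 0.58) lay further from 0, and mt-Nd6 was detected on no array.

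In the pathways that feed the respiratory chain, all probes past the criterion were lower in the posterior lobes, which 5.00% of all tested probes were. In the citric acid cycle 3 of 26 tested probes passed (11.5%), with a list median of -0.06. Among them the Ogdh probe fell by 0.31 and 1 of the 2 Idh3a probes by 0.28 on the log2 scale, while the other, dim Idh3a probe had a difference of -0.01. In glycolysis 5 of 25 passed (20%), with a list median of -0.06. These were 2 of the 3 Pfkm probes, which fell by 0.68 and 0.30, both Pfkp probes, which fell by 0.60 and 0.57, and the Hk1 probe, which fell by 0.55. The other Pfkm probe had a difference of -0.18. Both lists held no probe past the adjusted p, and the difference between either list and the respiratory chain was not tested.

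Of the regulators of mitochondrial biogenesis 1 of 29 tested probes passed (3.45%, against 8.29% of all tested probes). It was that of the mitochondrial DNA polymerase Polg, which fell by 0.42. Among the factors named with the promoters, Nrf1 had differences of 0.05 and 0.00 at its 2 probes and Gabpa one of 0.11. Its partner subunits had 0.45 ± 0.21 (SE, limma adjusted p = 0.55) for Gabpb2 and -0.31, 0.09 and 0.07 at the 3 probes of Gabpb1, none past the criterion. Tfam, which packs mitochondrial DNA, had 0.12 and 0.01. Yy1 was detected on no array. Of assembly factors outside the rule 4 of 33 tested probes passed (12.1%), all lower in the posterior lobes. They were 2 of 5 Foxred1 probes, which fell by 0.42 and 0.33 while the others had -0.28, -0.08 and 0.13, 1 of 3 Lrpprc probes, which fell by 0.31 while the others had -0.12 and -0.10, and the Cox15 probe, which fell by 0.27. Of genes for transport and the outer membrane 2 of 32 passed (6.25%, against 8.29% of all tested probes). The Slc25a12 probe fell by 0.58, and 1 of 3 Dnm1l probes by 0.31 while the others had 0.06 and -0.01. Mitochondrial ribosomal proteins, like the respiratory chain, lay mostly just above 0, with a median of 0.08 over 103 tested probes, 77 of them above 0. The criterion was passed by 1 of the 103 (0.971%, against 8.29% of all tested probes), Mrpl45, which fell by 0.38.

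**Figure D4:**
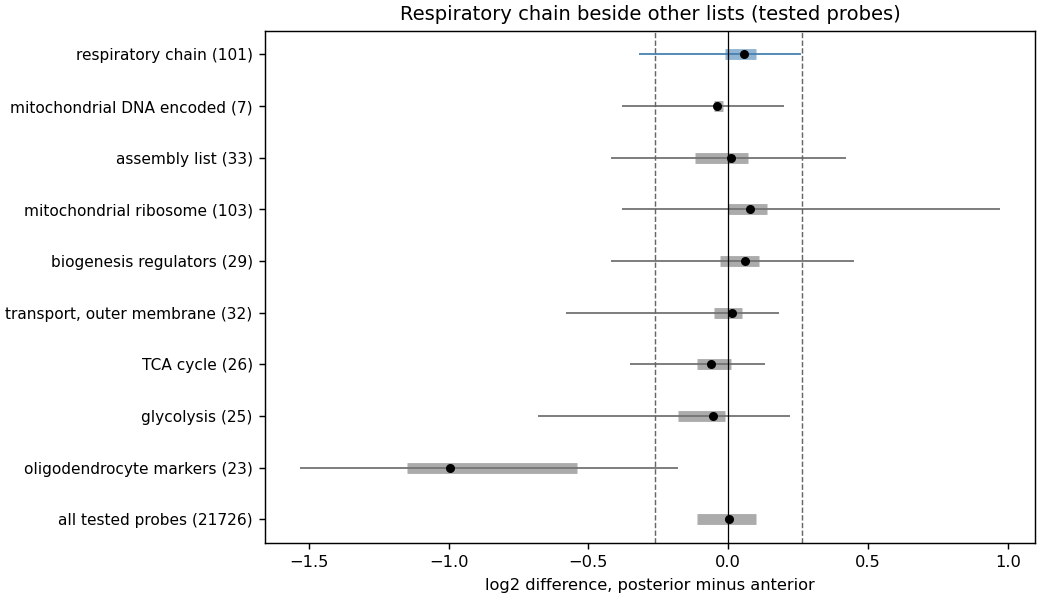
Lobe differences (log2, posterior minus anterior) of the tested probes of each list, with the number of probes in brackets: the point is the median, the thick bar the middle of the distribution from the 25th to the 75th percentile and the thin line the full range, which is left out for all tested probes; dashed lines mark 1.2-fold. The respiratory chain runs from -0.32 to 0.26, and the oligodendrocyte markers, with a median of -0.99, lie far to the left.

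In the other cell type lists 5 of 14 tested probes for granule neurons passed the criterion (35.7%, against 8.29% of all tested probes). Of these 5, 1 was higher and 4 were lower, among them Etv1 probes with differences of -0.64, -0.5 and -0.46. For vessels and blood 1 of 21 passed (4.76%), and none did for Purkinje cells (12), granule progenitors (18), astroglia (12) and microglia (9). The array detected markers of the tissue, but Pcp4, Calb1 and Car8 of Purkinje cells and Atoh1, Gli1 and Mycn of granule progenitors were detected on no array.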

How the data were processed

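Illumina MouseWG-6 v2.0 arrays measured total RNA of 2 anterior and 2 posterior cerebellar lobe samples. The authors deposited, per probe and array, the mean bead intensity without normalization or background subtraction, the bead SD, the number of beads (other values) and a detection score, a fraction equal to 1 minus the detection p-value. The submitters' notes name GenomeStudio 1.9.0. Another 16 columns were not used.

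Here the bead intensities were quantile normalized, floored at 1 and log2 transformed, and probes with a detection score over 0.95 on at least 2 arrays were tested with limma 3.58.1 (lmFit, eBayes with an intensity trend) in R 4.3.3, with Benjamini-Hochberg adjustment over all tested probes. The criterion (1.2-fold, unadjusted p under 0.05) is that of the methods. The fit was tested on simulated data. Samples were grouped by the lobe in the labels. The members and lists were chosen with earlier results of these data known. Named members are those past the criterion, the 2 probes with the largest difference in each direction per complex, all Sdh, Cycs and Cyc1 probes and the tissue-restricted isoforms. Ndufa2, Ndufs4, Ndufs6, the second probes of Ndufc2 and Atp5l and the genes named from lists were chosen after their values were seen. Each probe is reported on its own. Alternatives were neqc (offset 16), no normalization, a common 75th percentile, cyclic loess, other detection limits, eBayes without trend, the methods' t-test, a replicate block and leaving out each array. Centring and the intervals were added after seeing the data. Promoters are from RefSeq (GRCm38.p6). The results of some named genes are not reported here.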

Additional observations from a re-analysis of the deposited data

How the results depend on the processing

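The criterion count of 1 member became 2 with neqc (1.98%, against 8.54% of all tested probes). It became 3 after the shift to a common 75th percentile (2.97%, against 8.41%) and 0 without normalization (against 6.06%). At 1.5-fold it was 0, since no member difference was that large. Leaving out each array in turn moved the lowest member difference to between -0.40 and -0.28 and the highest to between 0.28 and 0.34. The member median of 0.056 was 0.082 after the 75th percentile shift, which moved the median of all tested probes to 0.032 and the members above 0 to 82 of 101 (81.2%, against 58.3% of all). It was 0.041 without a filter, 0.033 with 1 probe per gene, 0.045 after centred cyclic loess, and 0.023 to 0.059 leaving out arrays. After the 75th percentile shift the medians were 0.089 (complex I), 0.132 (II), -0.025 (cytochrome c), 0.077 (IV) and 0.083 (V). Without normalization they were 0.044 (IV) and 0.050 (V), without a filter 0.041 (I), and with a detection score over 0.99 -0.007 (cytochrome c). Leaving out arrays gave 0.031 to 0.062 (I), 0.045 to 0.166 (II), -0.073 to -0.008 (III), -0.105 to -0.043 (cytochrome c), -0.007 to 0.051 (IV), 0.048 to 0.085 (V) and -0.087 to 0.085 (assembly factors). The cause was not tested.

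The replicate number shared by the lobes is not stated to mark a common animal or day. The differences between replicates correlated between lobes with r = 0.46 over all tested probes and -0.021 over members, across genes, which are not independent. With a replicate block 1 member passed the criterion and 0 the adjusted p, while 2818 and 588 of all tested probes did (1802 and 23 without it). The methods' t-test called 741 of all tested probes by the criterion and 0 after adjustment, and among members 1 and 0, with 7 at an unadjusted p under 0.05. Where only the detection filter or the test was changed, the difference of a named member could not change. In the count that follows, only a changed p could move those values. Of 369 values of the 27 named members under alternatives, 345 stayed within their spread or on their side of the criterion, 12 moved, 8 came to pass it and 4 no longer did, those of Cox6a2.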
